A study of Mus musculus with 6 samples.

Results

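Transcription factors that mark or direct the mesenchymal, bone and cartilage lineages were followed in mouse mesenchymal stem cells exposed to terahertz radiation. The set was given by name, chosen with earlier results of these data known, and held 10 genes: Osr1, Osr2, Prrx1, Twist1, Twist2, Runx2, Sp7, Sox9, Dlx5 and Msx2. Every probe set whose symbol in the platform annotation was exactly 1 of these names was taken, without regard to its values. This gave 18 probe sets for 9 genes, of 45037 probe sets and 18193 named genes in all. Runx2 carried no probe set under that symbol in the annotation used and is not analysed here. Prrx1 had 6 probe sets, Sox9 had 3, Osr2 and Msx2 had 2 each, and the other 5 genes had 1 each. Probe sets of 1 gene share their transcript and are not independent measurements.

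The cells were a commercial mouse mesenchymal stem cell product, and the labels give no strain or age. All 6 cultures grew in α-MEM with 5% serum. A fat-inducing mixture had been added again 48 h before irradiation, with rosiglitazone at 1 µM, insulin at 5 µg/ml, IBMX at 100 µM and dexamethasone at 1 µM, so the controls carried it too. In each of 3 independent experiments 1 culture was irradiated for 12 h with a pulsed broadband source centred near 10 THz. The source gave 35 fs pulses at a 1 kHz rate and delivered 1 mW/cm2 on average. Its control stood next to it without irradiation, and both were kept between 26 and 27 °C. Total RNA was taken straight afterwards and hybridised to an Affymetrix mouse array, which gave 3 irradiated and 3 control arrays. The series asks which genes differ between irradiated cells and their own controls.

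These factors sort mesenchymal cells into their fates. Osr1 and Osr2 are odd-skipped-related zinc finger proteins of embryonic mesenchyme. Prrx1 is a paired-related homeodomain protein of limb and facial mesenchyme, and Twist1 and Twist2 are basic helix-loop-helix proteins that hold mesenchymal cells in an immature state and restrain Runx2. Runx2 and its downstream partner Sp7, also called osterix, drive osteoblast formation, Sox9 drives cartilage formation, and Dlx5 and Msx2 are homeodomain proteins that respond to bone morphogenetic protein (BMP) signals in bone.

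In the list of promoters used, 5 of the 10 genes had an entry: Prrx1, Twist1, Twist2, Runx2 and Msx2. The 250 bases before the start are shown for Prrx1, Twist1 and Twist2, the 3 of these genes whose levels varied together between experiments in the results that follow. Sequences are from RefSeq, build GRCm38.p6, given 5′ to 3′ on the strand of the gene, at chr1:163313651-163313900 on the minus strand for Prrx1, chr12:33957421-33957670 on the plus strand for Twist1 and chr1:91801211-91801460 on the plus strand for Twist2. Capitals mark matches to any of 6 motifs, searched on both strands: the E box CANNTG bound by Twist proteins, the homeodomain site TAATTA, a Runx site TGTGGT, a Sox site ACAAAG, the GC box GGGCGG and the TATA box TATAAA.
Prrx1: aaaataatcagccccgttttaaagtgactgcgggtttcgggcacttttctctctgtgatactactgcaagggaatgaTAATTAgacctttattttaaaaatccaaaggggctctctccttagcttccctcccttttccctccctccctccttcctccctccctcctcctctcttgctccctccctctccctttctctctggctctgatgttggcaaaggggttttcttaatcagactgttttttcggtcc
Twist1: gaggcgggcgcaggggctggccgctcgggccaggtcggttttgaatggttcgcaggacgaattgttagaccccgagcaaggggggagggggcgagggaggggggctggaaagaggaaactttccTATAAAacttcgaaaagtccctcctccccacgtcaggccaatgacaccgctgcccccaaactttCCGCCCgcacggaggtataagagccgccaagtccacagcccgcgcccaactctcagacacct
Twist2: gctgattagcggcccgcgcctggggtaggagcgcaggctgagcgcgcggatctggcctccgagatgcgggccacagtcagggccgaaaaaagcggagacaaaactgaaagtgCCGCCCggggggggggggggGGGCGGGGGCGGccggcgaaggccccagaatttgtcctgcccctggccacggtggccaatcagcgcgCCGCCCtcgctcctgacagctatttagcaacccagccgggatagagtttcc

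The Prrx1 window held 1 homeodomain site, starting 173 bases before the start, a motif found in 4.84% of 32851 such windows. The Twist1 window held 1 TATA box, starting 126 bases before the start, and 1 GC box, which 12.4% and 32.7% of windows held. The Twist2 window held 4 GC box matches, some of them next to each other in a G-rich run. No window of the 3 held a match to the E box, found in 66.2% of windows, to the Runx site, found in 14.0%, or to the Sox site, found in 16.5%. GC content was 47.6% for Prrx1, 62.4% for Twist1 and 68.8% for Twist2, against a median of 52.4% over all windows. These matches describe letters in the windows alone and share no motif across the 3 genes.

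Expression is given per probe set on the log2 scale as the authors deposited it, and the precision is limited by having 3 arrays a group. A probe set was called dim where its mean was under 6 in both groups. By this measure 10 of the 18 probe sets and 6 of the 9 genes were above the dim level: Osr1, Prrx1, Twist1, Twist2, Sox9 and Dlx5. Osr2, Sp7 and Msx2 were dim on all their probe sets. Array medians lay between 4.74 and 4.80. Of 13 measured stromal markers 12 were above the dim level, among them Pdgfra at 8.65 in controls, while Thy1, a usual marker of these cells, was dim at 4.11. All 9 fat cell markers were above it, with Pparg at 9.44 and Adipoq at 13.46 in controls. All 14 macrophage markers were above it as well, with the leukocyte gene Ptprc at 9.85 and the receptor gene Csf1r at 13.03 in controls. Of endothelial, epithelial, neural and skeletal muscle markers 0 of 7, 1 of 6, 1 of 5 and 0 of 6 were above it. RNA came from whole cultures, so fewer cells of a type and less RNA per cell cannot be told apart.

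Among the mesenchymal factors, Osr1 read higher in irradiated cells in all 3 experiments. Its log2 values were 7.78, 7.28 and 6.56 in the controls of experiments 1, 2 and 3, and 8.51, 7.69 and 7.62 in the irradiated cultures. Every irradiated culture was above its own control, but the groups overlapped, since control 1 was above irradiated cultures 2 and 3. The control mean was 7.21 ± 0.61 (SD, n = 3). The irradiated mean was 7.94 ± 0.49 (SD, n = 3). The paired log2 differences were 0.73, 0.41 and 1.06, a mean of 0.73 with a 95% interval of 0.40 to 1.07, or 1.66-fold with an interval of 1.32 to 2.10. The limma p with the experiment as a block was 0.00146 before adjustment and 0.53 after Benjamini-Hochberg adjustment over all probe sets, so Osr1 did not pass. Of the 9302 genes above the dim level, 24 (0.258%) had an absolute log2 difference at least this large. Without the block its unadjusted limma p was 0.0554. Osr1 had a single probe set, so no other one bears on this value.

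Osr2, the close relative of Osr1, read near background on every array. Its values ran from 3.11 to 3.63 on probe set 1426155_a_at and from 2.87 to 3.10 on 1430950_at. Log2 differences were -0.14 and -0.05, with experiments of both signs on each probe set.

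Prrx1 gave different answers on its different probe sets. The brightest, 1425528_at, read 11.69, 11.25 and 11.33 in controls and 11.73, 11.44 and 11.34 in irradiated cells. The groups overlapped, with a log2 difference of 0.08 (95% interval -0.15 to 0.31). In contrast, probe set 1432129_a_at read 8.69, 8.32 and 8.34 in controls and 8.07, 7.89 and 7.95 in irradiated cells. All 3 irradiated arrays were below all 3 controls, the single member probe set where the groups did not overlap, as was so in this direction for 4.82% of all probe sets. The control mean of 8.45 ± 0.21 (SD, n = 3) compared with 7.97 ± 0.09 (SD, n = 3) after irradiation, a log2 difference of -0.48 (95% interval -0.72 to -0.24). The limma p was 0.00249 unadjusted and 0.53 adjusted.

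A further Prrx1 probe set, 1439774_at, read 7.56, 7.15 and 6.99 in controls and 7.47, 6.73 and 6.62 in irradiated cells. Each irradiated culture was below its control, though the groups overlapped, with a log2 difference of -0.29 (limma unadjusted p = 0.033, adjusted p = 0.589). Its unadjusted p was 0.253 without the block and 0.164 without experiment 2. Probe sets 1425526_a_at and 1425527_at had log2 differences of -0.13 and 0.07, and the dim probe set 1458004_at of 0.00.

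The Prrx1 probe sets were also set against each other within arrays, a comparison chosen after their values were seen. Relative to 1425528_at, the change on 1432129_a_at was lower by 0.66, 0.62 and 0.40 on the log2 scale in the 3 experiments. The mean of this unequal change was -0.56 ± 0.14 (SD, n = 3). Flipping signs in an exact permutation test (two-sided) gave p = 0.25, which 3 pairs cannot go below. The corresponding means were -0.37 ± 0.24 (SD, n = 3) for 1439774_at, -0.21 ± 0.12 (SD, n = 3) for 1425526_a_at and -0.01 ± 0.18 (SD, n = 3) for 1425527_at. RefSeq lists several transcripts for Prrx1, and which of them each probe set reads was not analysed here.

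Twist1 and Twist2, related basic helix-loop-helix genes, differed in opposite directions by small amounts. Twist1 read 9.40, 8.83 and 8.76 in controls and 9.44, 9.02 and 9.07 in irradiated cells. Its 3 differences were all higher, at 0.04, 0.19 and 0.31, with a mean of 0.18 (95% interval -0.07 to 0.43). Twist2 read 7.33, 6.88 and 6.71 in controls and 7.23, 6.67 and 6.56 in irradiated cells. Its 3 differences were all lower, at -0.10, -0.21 and -0.15, with a mean of -0.15 (95% interval -0.38 to 0.07). Both groups overlapped for each gene. The adjusted limma p was 0.686 for Twist1 and 0.706 for Twist2, and the difference between these 2 responses was not tested.

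The bone and cartilage factors had differences with intervals on both sides of 0. Dlx5 read 6.90, 7.09 and 7.68 in controls and 6.95, 7.09 and 7.52 in irradiated cells, and the pairs lay close together. Its log2 difference was -0.04 (95% interval -0.27 to 0.20). The adjusted limma p was 0.947. Sp7 was dim, with values between 5.57 and 5.90, and differed by -0.19, 0.33 and -0.31 in the 3 experiments. Msx2 was dim on both probe sets, with no value above 4.25 and log2 differences of 0.13 and 0.05.

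Sox9, the cartilage master gene, read just above the dim level on probe set 1451538_at, with 6.14, 6.19 and 5.83 in controls and 6.29, 5.79 and 6.22 in irradiated cells. Its differences of 0.15, -0.40 and 0.39 disagreed in sign and averaged 0.05 (95% interval -0.34 to 0.43). The other 2 Sox9 probe sets were dim and differed by -0.17 and -0.13.

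**Figure D1:**
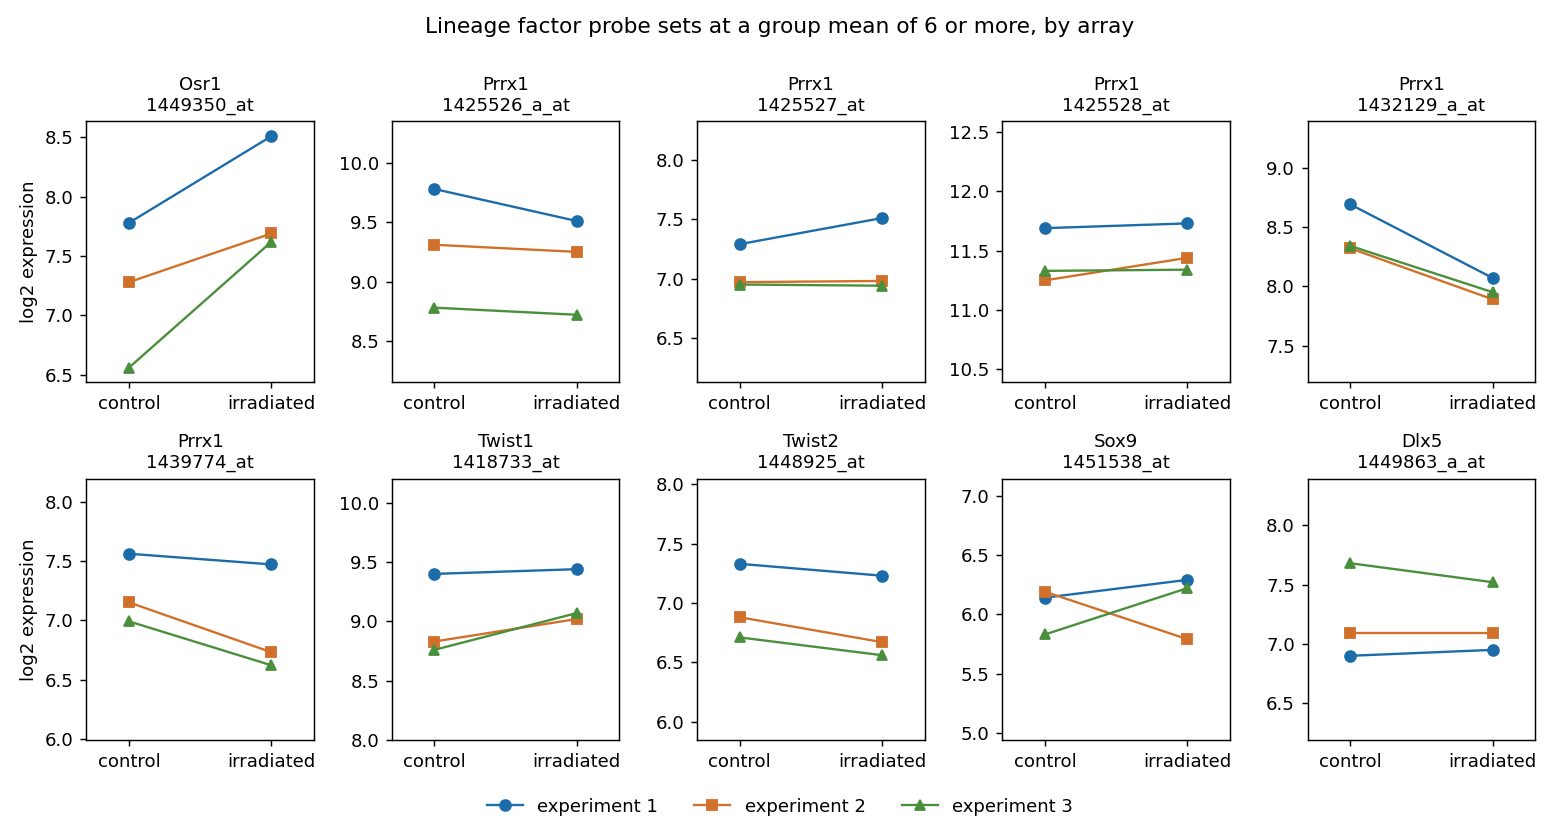
Deposited log2 expression (vertical axis, all panels spanning the same range) of the 10 lineage factor probe sets above the dim level, in control and irradiated cultures; each line joins the 2 cultures of 1 experiment. Osr1 is higher and Prrx1 1432129_a_at lower in the irradiated culture of every experiment. For 9 of the 10, all but Prrx1 1432129_a_at, the range of the experiment means is wider than the irradiation difference. For Osr1 the range is 1.05 and the difference 0.73.

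No member passed adjustment for irradiation. Nor did any other of the 45037 probe sets at an adjusted limma p under 0.05 (0.0%), where the lowest value reached 0.188. At an unadjusted limma p under 0.05 there were 3 of 18 member probe sets, 1 higher (Osr1) and 2 lower (both Prrx1), against 8.06% of all probe sets, 3.86% higher and 4.2% lower. Among the 10 above the dim level these were 3, against 11.2% of such probe sets. With the brightest probe set per gene, 1 of 9 genes, Osr1, had such a p, against 8.31% of all genes. The groups did not overlap for 1 of 18, against 9.34% of all probe sets, and for 1 of the 10 above the dim level, against 11.8%. A single sign in all 3 experiments was seen for 8 of 18, against 29.1%. Of these, 3 were higher, against 15.3%, and 5 lower, against 13.8%. Above the dim level 7 of 10 kept a single sign, against 36.8%. Several of the 7 belong to Prrx1, with both directions among them. Counted by the brightest probe set of each gene, 4 of 9 genes kept a single sign, beside the 29.1% of all probe sets. Above the dim level 4 of 6 genes did, beside the 36.8%. With the brightest probe set per gene, the median log2 difference was 0.0467 over the 9 genes and 0.00667 over all genes.

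**Figure D2:**
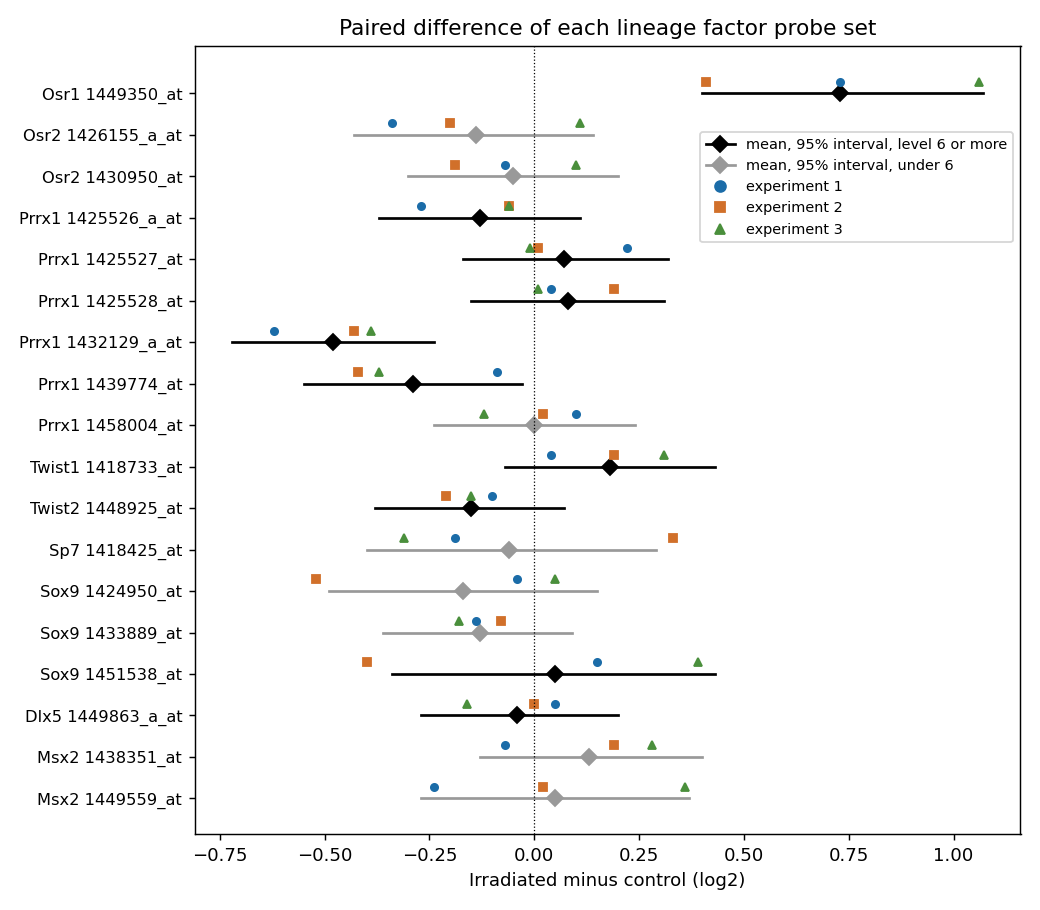
Irradiated minus control on the log2 scale for all 18 probe sets. Diamonds and bars give the mean and 95% interval of the limma fit, black for probe sets above the dim level and grey for dim ones, and coloured symbols give each experiment; intervals of Osr1, Prrx1 1432129_a_at and Prrx1 1439774_at lie on 1 side of 0 before any adjustment.

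Several members also differed between the 3 experiments, and most of them read highest in experiment 1. Averaged over the control and irradiated array of each experiment, Osr1 read 8.14, 7.48 and 7.09 in experiments 1, 2 and 3. Twist2 read 7.28, 6.78 and 6.64, and Twist1 read 9.42, 8.93 and 8.91. Prrx1 read 9.64, 9.28 and 8.75 on probe set 1425526_a_at, the widest range of its 6, and 11.71, 11.34 and 11.34 on the brightest. These 4 mesenchymal factors were highest in experiment 1. So were 9 of the 10 member probe sets above the dim level, against 52.3% of all such probe sets. Other lists shared this, counted by 1 probe set per gene above the dim level. Highest in experiment 1 were 5 of 5 cartilage target genes, 9 of 14 related lineage factors, 8 of 12 stromal markers and 13 of 21 upstream signals. The counts were 7 of 11 for bone target genes, 12 of 21 for partners and modulators, 2 of 9 for fat cell markers and 0 of 14 for macrophage markers. The range of the experiment means was wider than the irradiation difference for 16 of 18 member probe sets, a share near the background of 79.9%, and for 9 of the 10 above the dim level, against 78.9%.

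Dlx5 ran the other way, at 6.93, 7.09 and 7.60, and was highest in experiment 3. In the controls alone it spanned 0.78 on the log2 scale, where Osr1 spanned 1.22. By the limma F test between experiments, with the group as a covariate, 9 of 18 member probe sets had an unadjusted p under 0.05, against 15.1% of all probe sets. Above the dim level there were 8 of 10, against 21.1%. Of the 18, 8 had such a p and were highest in experiment 1, against 7.28% of all probe sets, and 1, Dlx5, was highest in experiment 3, against 5.58%. Taken over probe sets with such a p alone, 8 of 9 member probe sets were highest in experiment 1, against 48.2% in the whole table. Above the dim level 7 of 10 probe sets had such a p and were highest in experiment 1, against 12.8%. This is 7 of 8 with such a p, against 60.8%. Several of these probe sets belong to Prrx1. With the brightest probe set per gene, 5 of 9 genes had such a p, against 14.8% of all genes. Of these 5 genes, 4 were highest in experiment 1. No member passed at an adjusted p under 0.05, a threshold that 2 of 45037 probe sets passed (0.00444%). The smallest adjusted limma p was 0.102, for Prrx1 1425526_a_at, followed by 0.128 for Osr1, 0.139 for Twist2 and 0.141 for Dlx5. With an intensity trend and a robust prior 2 of 18 member probe sets passed, Prrx1 1425526_a_at and Osr1. In that fit 716 of all 45037 probe sets passed (1.59%).

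Markers of macrophages moved between the experiments in the opposite direction to most of the members. Their mean log2 level over 14 genes was 10.80 in experiment 1, 11.33 in experiment 2 and 11.44 in experiment 3. Of the 14 genes 13 were lowest in experiment 1 and 12 highest in experiment 3, and 12 had an unadjusted limma p under 0.05 between experiments, against 14.8% of all genes. Csf1r read 12.43, 13.10 and 13.40 and Ptprc 9.36, 10.02 and 10.10. Stromal markers had list means of 9.46, 9.36 and 9.33, and fat cell markers of 11.15, 11.26 and 11.16. The signal of 3 prime over 5 prime control probe sets, a measure of RNA quality, also separated the experiments, at 0.19 to 0.20 in experiment 1, 0.25 to 0.27 in experiment 2 and 0.38 on both arrays of experiment 3. The part of either in the differences between experiments was not tested.

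**Figure D3:**
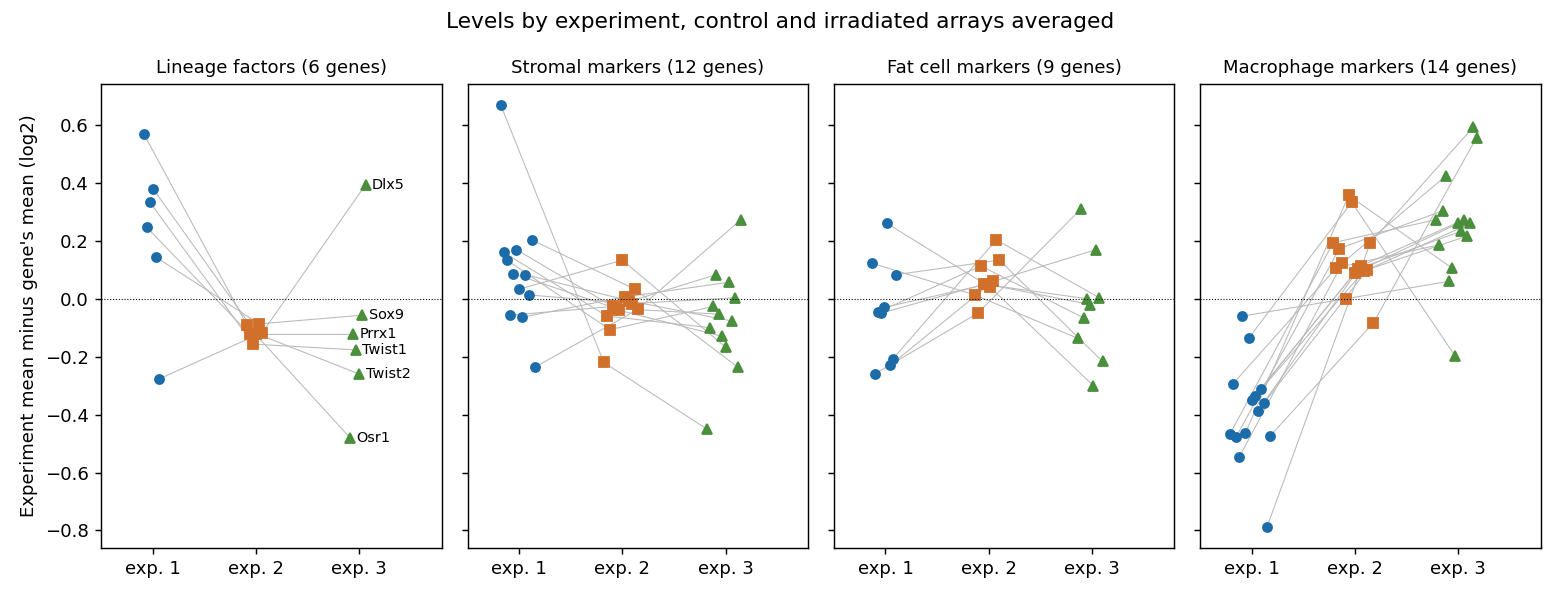
Mean of the control and irradiated array of each experiment minus the gene's mean over the 3 experiments, log2 scale, for genes above the dim level in 4 lists, 1 probe set per gene; thin lines join 1 gene. Of the 6 lineage factors 5, all but Dlx5, are highest in experiment 1, where 13 of 14 macrophage markers are lowest.

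Between the groups the macrophage list means overlapped. They ran from 10.92 to 11.54 in controls and from 10.69 to 11.35 in irradiated cultures, and 13 of 14 genes had a lower mean in irradiated cells, with 1 at an unadjusted p under 0.05, Cd14 (log2 difference -0.73), named after its value was seen. The list median difference was -0.26, 0.075 and -0.115 in experiments 1, 2 and 3. Beside these values Osr1 differed by 0.73, 0.41 and 1.06, and Prrx1 1432129_a_at by -0.62, -0.43 and -0.39. The part of the macrophage markers in these differences was not tested. The 3 prime over 5 prime signal differed by 0.02 or less within each pair. Experiment 3, which gave the widest Osr1 difference, had a mean hybridisation control signal of 11.47 on its irradiated array and 10.95 on its control array, against 10.47 to 10.93 on the other 4 arrays. Without experiment 3 the Osr1 difference was 0.57.

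Genes around these factors were read from 5 lists: related lineage factors, partners and modulators, upstream signals, bone target genes and cartilage target genes. No gene of the 5 passed adjustment. Of 33 measured upstream signal genes 21 were higher and 12 lower in irradiated cells. In all 3 experiments 13 of the 33 were higher and 4 lower, against 15.3% and 13.8% of all probe sets. At an unadjusted limma p under 0.05 there were 5 higher and 2 lower, 21.2% of the list against 8.31% of all genes. Of the 21 genes above the dim level 6 had such a p, against 11.2% of all probe sets above it. The list median was 0.05. Smad1, which carries BMP signals to the nucleus, had a control mean of 8.91 ± 0.39 (SD, n = 3) and an irradiated mean of 9.58 ± 0.30 (SD, n = 3). The log2 difference was 0.67, with an adjusted limma p of 0.513, and its 3 probe sets were all higher.

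The ligand gene Bmp4 differed by 0.61, with 0.54, 0.04 and 1.25 in the 3 experiments, while Bmp2 differed by 0.01. Like Osr1, Bmp4 was highest in experiment 1, with experiment means of 9.28, 8.31 and 8.06. The fibroblast growth factor receptor gene Fgfr2 differed by 0.44, and by 0.15 on its other probe set above the dim level. On the first the groups were apart, as for 11.8% of all probe sets above the dim level. The hedgehog receptor gene Ptch1 differed by 0.35, and by -0.01 and 0.11 on its other probe sets, which were dim. Notch1 was lower by 0.39 on the log2 scale, also with the groups apart. Its other probe set, which was dim, differed by -0.12.

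Of 25 measured partners and modulators 4 were higher and 1 lower at an unadjusted limma p under 0.05. This was 20.0% of the list, against 8.31% of all genes. Of the 21 above the dim level 4 had such a p, against 11.2% of all probe sets above it. The list median was 0.0333. Id4 and Id3 encode inhibitors of basic helix-loop-helix proteins, and differed by 0.50 and 0.36, with all 3 Id4 probe sets above the dim level higher. The corepressor genes Tle1 and Tle3 differed by 0.38 and 0.24, but the other Tle1 probe set above the dim level differed by 0.07. The dim Tle3 probe sets differed by 0.37, -0.13 and 0.31. Cbfb, the partner of Runx proteins, differed by 0.12.

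Among 34 related lineage factors 3 were higher and 1 lower at an unadjusted limma p under 0.05. This was 11.8% of the list, against 8.31% of all genes. Of the 14 above the dim level 3 had such a p, against 11.2% of all probe sets above it. The list median was 0.0567. Snai2, a zinc finger factor of mesenchymal transitions, differed by 0.55, from 0.61, -0.04 and 1.09 in the 3 experiments, so experiment 2 did not share the direction. The forkhead genes Foxc1 and Foxc2 differed by 0.28 and 0.21, both higher in all 3 experiments. Msx1, the relative of Msx2, read 5.79 in controls and 6.03 in irradiated cells, a difference of 0.24. It passed the dim level through the irradiated arrays alone, and its other probe set, which was dim, differed by -0.05. Prrx2, the relative of Prrx1, differed by -0.13.

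Of 17 measured bone target genes 1 was higher and 2 lower at an unadjusted limma p under 0.05. This was 17.6% of the list, against 8.31% of all genes. Of the 11 above the dim level 2 had such a p, against 11.2% of all probe sets above it. The list median was -0.0467. Tnfsf11, the osteoclast differentiation factor RANKL, differed by 0.35 and was higher on both probe sets. Ibsp, bone sialoprotein, differed by -0.34, and by -0.09 on its other probe set. Its experiment means of 8.18, 8.70 and 9.25 rose from experiment 1 to 3, as did those of Dlx5 and of the macrophage list. Of the 11 bone target genes above the dim level, 7 were highest in experiment 1. The collagen gene Col1a1 differed by -0.08 and the phosphatase gene Alpl by -0.01, Omd by 0.16 and Postn by -0.15. Bglap and Spp1 carried no probe set under those symbols in the annotation used and are not analysed here.

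Of 22 measured cartilage target genes 2 were higher and 1 lower at an unadjusted limma p under 0.05. This was 13.6% of the list, against the same 8.31%, with a median of 0.0433. Only 5 were above the dim level, 2 of them with such a p, against the same 11.2%. The collagen gene Col11a1 differed by 0.27 and the lubricin gene Prg4 by 0.33, both higher in all 3 experiments. Chst11, a chondroitin sulfotransferase gene, differed by 0.24 and Fmod, fibromodulin, by 0.14. The other Chst11 probe set, which was dim, differed by -0.06. The cartilage matrix genes Col2a1 and Acan, direct targets of Sox9, were dim at 5.53 and 4.21 in controls, with differences of -0.13 and -0.08.

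**Figure D4:**
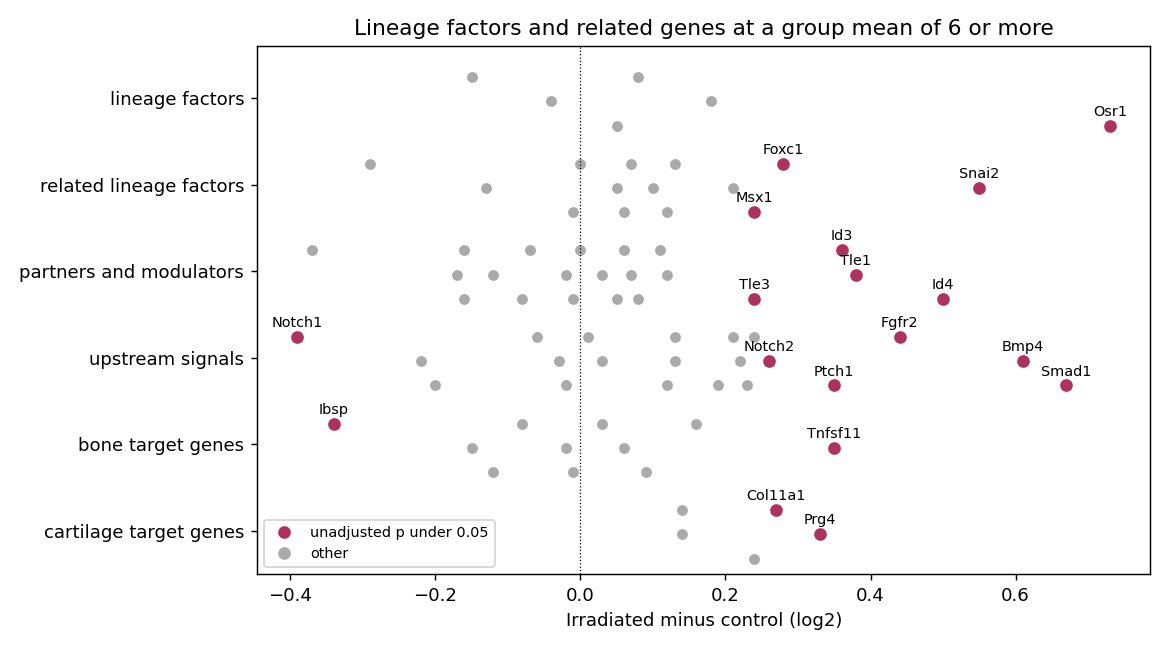
Irradiated minus control (log2) for genes above the dim level in the lineage factors and the 5 related lists, 1 probe set per gene; vertical offsets within a row only separate points. Named red points have an unadjusted limma p under 0.05, and none passes adjustment; Osr1, Smad1 and Bmp4 lie furthest to the right.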

How the data were processed

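The authors deposited log2 values, given to 2 decimals, for each probe set of 6 arrays. The labels' protocols state that biotin-labelled RNA was made from 200 ng of RNA. The submitters' processing notes name RMA, affy and limma. For versions and the background step, the sources used here give nothing. Of 45101 probe sets, 64 array controls were left out. The platform annotation gives 1 symbol for 34945 of the rest, several for 932 and none for 9160.

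Groups were compared by limma 3.58.1 under R 4.3.3 (lmFit, eBayes, two-sided, 2 residual and 4.52 prior degrees of freedom) with the experiment as a block, because the design text pairs each irradiated culture with its adjacent control. P-values were adjusted by Benjamini-Hochberg over 45037 probe sets, with a threshold of 0.05. Those for irradiation set the mean difference against the spread of the 3 paired differences, moderated over all probe sets. The block takes out differences in level between experiments. Experiments were compared by the F test of the same fit. As a check of the pairing, deviations from group means across 9302 genes correlated within pairs at 0.787, 0.028 and 0.324. Across pairs, control 3 with irradiated 2 reached 0.552 and control 2 with irradiated 3 reached 0.179. These correlations bear out the pairing for experiment 1 and not for experiments 2 and 3, where it was taken from the design text. The 3 prime over 5 prime signal was alike within those pairs, at 0.27 and 0.25 in experiment 2 and 0.38 on both arrays of experiment 3. The fit was tested on simulated data. In lists, a gene was represented by its probe set with the highest mean. All members were named. From each related list up to 4 genes above the dim level with the largest statistic were named, plus a fixed few. Members and lists were chosen with earlier results of these data known. Alternative fits changed the block, arrays, filter, normalization, variance model and probe sets per gene. Figures were drawn with matplotlib 3.10.9.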

Additional observations from a re-analysis of the deposited data

How the results depend on the processing

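Over 163 alternative values of the member probe sets no irradiation difference passed adjustment (lowest adjusted limma p 0.216). Leaving out 1 experiment at a time, Osr1 stayed between 0.57 and 0.90 on the log2 scale and Prrx1 1432129_a_at between -0.52 and -0.41. The 8 changes of sign all came from leaving out an experiment, with ranges of -0.13 to 0.01 for Osr2 1430950_at, -0.25 to 0.07 for Sp7, -0.28 to 0.01 for Sox9 1424950_at, -0.12 to 0.27 for Sox9 1451538_at, -0.08 to 0.03 for Dlx5 and -0.11 to 0.19 for Msx2 1449559_at. Prrx1 1458004_at, at 0.00, has no direction and ran from -0.05 to 0.06, and Prrx1 1425527_at was 0.00 without experiment 1. The median of the members was 0.0467 and became -0.0567 with the mean over all probe sets of a gene, and 0.01 without experiment 1 and 0.025 without experiment 2 or 3. Over all probe sets, 0 passed adjustment for irradiation and 2 with the experiment as a random block. At an unadjusted limma p under 0.05 there were 3631 (8.06%), against 2168 (4.81%) without the replicate block. Counts were lower but shares higher without dim probe sets, at 2260 (13.8% of 16431), and with 1 probe set per gene, at 1692 (9.3% of 18193). Leaving out an experiment gave 1692 (without experiment 1) to 3748 (without experiment 3). Between experiments 2 probe sets passed adjustment, against 203 without dim probe sets, 716 with an intensity trend and robust prior and 11 with 1 probe set per gene. Unadjusted counts were 6810 (15.1%), 4021 (24.5%) without dim probe sets and 2942 (16.2%) with 1 probe set per gene. The alternatives without dim probe sets and with 1 probe set per gene test fewer features, and for the other settings the cause was not tested.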
